A study of Mus musculus with 7 samples.

Results

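Accessible chromatin in frozen mouse liver was mapped with Benzonase and with Cyanase, and the hotspot lists of these enzymes were set against each other. A hotspot is a stretch of the genome where the tags left by nuclease cuts cluster above background. There were 60910 hotspots for Benzonase and 57675 for Cyanase, together 118585 of the 190871 hotspots of the series, which also holds a DNase I list from nuclei of fresh liver. Members were chosen as every hotspot of the Benzonase and Cyanase lists. These lists came from 6 of the 7 samples.

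All samples were liver of male C57BL/6 mice aged 8 weeks. For both enzymes the tissue was frozen, pulverized and digested without isolating nuclei. Each enzyme was used at 0.25, 1 and 4 U, with 1 library at each amount. The deposited list of each enzyme pools these 3 amounts, so amounts could not be compared, no spread between replicates is known, and no test of enzyme against enzyme was possible. Whole liver was used, so a hotspot cannot be assigned to a cell type, and fewer cells of a type cannot be told apart from less accessible DNA per cell. The lists give the position of each hotspot and no tag number, so the depth behind a hotspot is unknown. All positions are on mm9. Intervals are 95% intervals and cover counting error only.

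Nucleases cut DNA most readily where nucleosomes are absent or displaced, which is the usual state of active promoters and enhancers. Many promoters lie in CpG islands, stretches rich in the dinucleotide CpG that tend to be free of DNA methylation in most cell types, while promoters of tissue-restricted genes often lack an island. Away from promoters, accessible sites are bound by factors such as CTCF, an insulator protein that shapes chromatin loops, and by lineage factors such as HNF4, FOXA and C/EBP in hepatocytes.

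Most DNA was called by both enzymes, and the sites called by 1 enzyme alone were the narrow ones, with different letters for each enzyme at the same GC content. Examples of the sequences are shown first.

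The widest distal Benzonase hotspots with the CTCF letters CCANNAGNNGGC and no Cyanase hotspot within 1 kb are shown 5′ to 3′ on the plus strand, with those letters in capitals. Both lie between genes, the first 90663 bp from Tmem38b and the second 41005 bp from Gm9873. The first lies at chr4:53944406-53944505 in a hotspot of 854 bp, 99992 bp from the nearest Cyanase hotspot. The second lies at chr2:168887176-168887275 in a hotspot of 753 bp, 78048 bp from the nearest Cyanase hotspot. Their longest purine or pyrimidine stretches are 10 and 8 bases, and they hold 2 and 4 CpG.
Benzonase hotspot near Tmem38b: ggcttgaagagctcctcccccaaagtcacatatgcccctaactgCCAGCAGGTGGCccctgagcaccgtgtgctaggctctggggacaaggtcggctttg
Benzonase hotspot near Gm9873: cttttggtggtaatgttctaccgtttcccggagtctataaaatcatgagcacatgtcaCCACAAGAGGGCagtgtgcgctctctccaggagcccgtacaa

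Promoters could also fall in 1 list alone. The 120 bases upstream of the TSS, the transcription start site, are shown 5′ to 3′ on the strand of the gene for genes whose TSS lay in a hotspot of 1 enzyme, with each CpG in capitals. Isl1, a homeodomain regulator of motor neuron and pancreatic development, and Krt19, a keratin of bile duct cells, were in the Benzonase list alone. The Isl1 sequence (chr13:117099897-117100016, minus strand) holds 15 CpG and the Krt19 sequence (chr11:100007435-100007554, minus strand) holds 4. Clec4f and C1qa, genes of Kupffer cells, the resident macrophages of the liver, were in the Cyanase list alone. Emr1, another macrophage gene, was in the Benzonase list alone. The Clec4f sequence (chr6:83606182-83606301, minus strand) holds no CpG and the C1qa sequence (chr4:136454719-136454838, minus strand) holds 4.
Isl1: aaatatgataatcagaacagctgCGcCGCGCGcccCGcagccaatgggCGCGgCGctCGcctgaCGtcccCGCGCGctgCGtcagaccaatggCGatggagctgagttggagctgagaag
Krt19: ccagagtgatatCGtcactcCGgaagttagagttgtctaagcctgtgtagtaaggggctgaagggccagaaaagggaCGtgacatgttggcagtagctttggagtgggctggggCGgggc
Clec4f: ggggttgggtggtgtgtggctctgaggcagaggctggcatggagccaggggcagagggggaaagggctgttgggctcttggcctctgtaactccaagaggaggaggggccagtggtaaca
C1qa: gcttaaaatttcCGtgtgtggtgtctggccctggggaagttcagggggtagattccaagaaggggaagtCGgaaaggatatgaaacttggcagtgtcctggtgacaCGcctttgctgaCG

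A partner was defined as a hotspot of the other list that overlapped by at least 1 bp. No partner was found for 12405 Benzonase hotspots, 20.4% of the list, and for 8430 Cyanase hotspots, 14.6% of the list. Measured in bases, 38.9 Mb was covered by both lists, which is 80.9% of the Benzonase bases, 88.4% of the Cyanase bases and 73.1% of all bases covered by either. Hotspots without a partner were narrow, with a median width of 393 bp for Benzonase and 376 bp for Cyanase, against 731 and 688 bp for hotspots with a partner. They were seldom near misses. Only 4.34% of the Benzonase and 4.46% of the Cyanase hotspots without a partner lay up to 150 bp from the other list, while 49.8% and 51.3% lay over 10 kb away.

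The missing partners followed hotspot width. Among hotspots of 251 to 350 bp, 71.5% of the Benzonase ones (interval 70.4 to 72.5) and 58.6% of the Cyanase ones (interval 57.3 to 59.8) had no partner. At 451 to 550 bp the shares were 35.04% and 21.8%. At 701 to 1000 bp they were 1.43% and 0.404%. Above 1000 bp, 28 of 13678 Benzonase hotspots and 4 of 11646 Cyanase hotspots had none. In each of the 6 width classes the Benzonase share was the higher one. Hotspots of the minimum width, 251 bp, numbered 1421 in the Benzonase and 1379 in the Cyanase list.

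**Figure D1:**
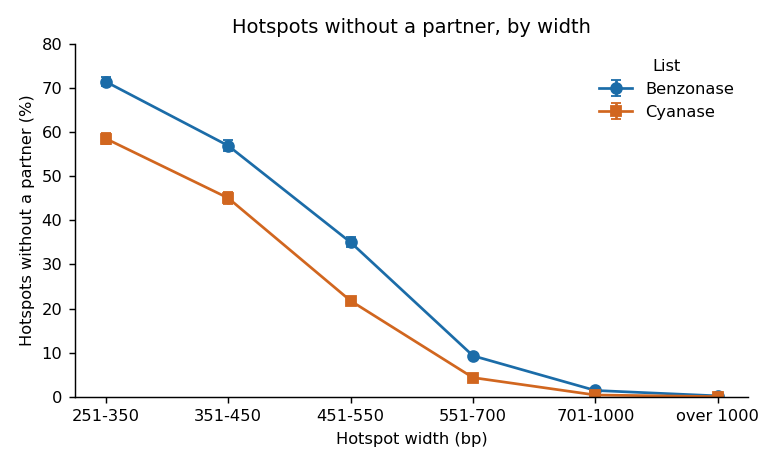
Share of hotspots without a partner in the other list (vertical axis, percent) by hotspot width in bp (horizontal axis), for Benzonase (circles) and Cyanase (squares), with 95% Wilson intervals. The share falls from 71.5% and 58.6% in the narrowest class to 0.205% and 0.0343% above 1000 bp.

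Position in the genome went with the missing partners as well. At promoters, here a hotspot reaching within 2 kb upstream of a TSS or over it, 7.15% of Benzonase and 3.55% of Cyanase hotspots had no partner. In distal regions, away from annotated genes, the shares were 27.7% and 21.9%. Hotspot width moves with this difference, since the median width of Benzonase hotspots was 1107 bp at promoters and 592 bp in distal regions, and its part in the result was not tested. On chromosome X, 32.8% of Benzonase and 27.8% of Cyanase hotspots lacked a partner, against 19.98% and 14.2% on the autosomes. The median width on X was 570 bp for Benzonase and 564 bp for Cyanase, against 654 and 643 bp on the autosomes. Within the class of 551 to 700 bp the Benzonase share was 13.8% on X and 9.19% on the autosomes.

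CpG islands set the enzymes apart. An island overlapped 838 of the Benzonase hotspots without a partner, 6.76% (interval 6.33 to 7.21), and 241 of the Cyanase ones, 2.86% (interval 2.52 to 3.24). Among hotspots with a partner the share was 23.9% in both lists. The gap between the enzymes in islands was also present within width classes. Of island hotspots of 551 to 700 bp, 192 of 799 Benzonase ones (24.0%) and 22 of 951 Cyanase ones (2.31%) had no partner. Of all hotspots of that width, 9.30% and 4.35% had none. At 251 to 350 bp the island shares were 67.5% and 28.0%, against 71.5% and 58.6% of all hotspots. Over all widths, 6.73% of Benzonase and 2.01% of Cyanase island hotspots had no partner. Outside islands the shares were 23.9% and 17.9%. The most GC-rich hotspots, over 70% GC, lacked a partner in 28.6% of 636 Benzonase and 8.20% of 707 Cyanase cases.

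Mean GC content did not follow this difference. In hotspots without a partner it was 52.1% for Benzonase (SD 6.81 over hotspots) and 51.8% for Cyanase (SD 6.53), a gap far smaller than the spread across hotspots. The arrangement of G and C differed more. The central 250 bp held on average 4.88 CpG in Benzonase and 3.46 CpG in Cyanase hotspots without a partner. The mean GC skew, the size of the excess of G over C or of C over G as a percent of all G and C, was 15.6% (SD 14.9) for Benzonase and 23.6% (SD 22.3) for Cyanase. This gap too was smaller than the spread across hotspots. Hotspots with a partner had a skew of 13.5% and 13.7%. Among hotspots of up to 450 bp, the skew was 16.3% for Benzonase and 23.6% for Cyanase without a partner. With a partner at that width it was 18.1% and 16.1%.

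The same central 250 bp were searched on both strands for short letter strings. G runs (GGGGGG, or 6 C on the other strand) stood in 21.6% of the Cyanase hotspots without a partner (interval 20.7 to 22.5) and in 12.0% of the Benzonase ones (interval 11.4 to 12.5). The share was 13.7% over all 118585 hotspots and 8.29% in 237007 windows placed 5 kb to either side. Runs of at least 20 purines or 20 pyrimidines stood in 12.6% of the Cyanase hotspots without a partner (interval 11.9 to 13.3) and in 4.78% of the Benzonase ones (interval 4.42 to 5.17), with 7.64% in the windows 5 kb away. The Cyanase share was thus above the flanks. The Benzonase share was below them, as were the 5.55% over all hotspots and the shares with a partner. These were 4.90% for Benzonase and 5.18% for Cyanase. KLF letters (CCCCACCC), bound by Krüppel-like zinc finger factors, were in 12.2% of the Cyanase and 7.56% of the Benzonase hotspots without a partner. G runs can overlap the KLF letters and the SP letters (GGGCGGGG), which were in 3.70% and 3.01%.

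CTCF letters went the other way. They stood in 695 of the Benzonase hotspots without a partner, 5.60% (interval 5.21 to 6.02), and in 286 of the Cyanase ones, 3.39% (interval 3.03 to 3.80). The share was 3.50% over all hotspots and 2.09% in the windows 5 kb away. With a partner, the Benzonase and Cyanase hotspots had 3.24% and 3.23%. A match of letters is a description of the window and not evidence that CTCF was bound.

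These contrasts held in narrower sets. Among distal hotspots without a partner, G runs were in 21.5% for Cyanase and 12.3% for Benzonase, and CTCF letters in 3.31% and 6.04%. Among those of 50 to 55% GC, purine or pyrimidine runs were in 14.7% for Cyanase and 5.29% for Benzonase, and CTCF letters in 2.87% and 6.46%. Among hotspots of up to 450 bp without a partner, G runs were in 22.4% for Cyanase and 12.8% for Benzonase. With a partner at that width, the shares were 13.8% for Cyanase and 15.8% for Benzonase. CTCF letters at that width were in 4.84% of Benzonase and 3.38% of Cyanase hotspots without a partner. With a partner they were in 3.93% for Benzonase and 4.60% for Cyanase. The excess of CTCF letters in Benzonase hotspots without a partner over those with one was thus smaller at that width. The part of width was not tested. The G run, the purine run and CTCF were picked for description after string counts of these lists had been seen. The genome sequence used carried no marks for repeats, and the part of simple repeats in these shares was not tested.

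Letters of liver factors showed smaller gaps. C/EBP letters (TTGCNNAA) were in 10.2% of the Benzonase hotspots without a partner (interval 9.64 to 10.7) and in 8.70% of the Cyanase ones (interval 8.11 to 9.32), near the 9.99% of the windows 5 kb away. Hotspots with a partner held them in 13.5% and 13.7%. FOXA letters (TGTTTAC) were in 3.73% and 3.50% without a partner and in 5.14% and 5.11% with one. HNF4 letters (CAAAGTCCA) were in 0.822% and 0.629% without a partner and in 1.466% and 1.501% with one. HNF1 letters (GTTAATNATTAA) were in 6 Benzonase and 7 Cyanase hotspots without a partner. AP-1 letters (TGANTCA), the site of the FOS and JUN family, stood in 6.92% and 6.61% without a partner. Promoter factors were rarer without a partner, with ETS letters (CCGGAAG) in 1.88% and 1.63% against 4.73% and 4.84%, and NRF1 letters (GCGCNTGCGC) in 0.331% and 0.249% against 1.75% and 1.77%. C/EBP, FOXA and HNF4 letters were therefore more frequent in hotspots that both enzymes called. Hotspots without a partner were narrower, and these gaps were smaller among hotspots of up to 450 bp. There ETS letters were in 1.82% of Benzonase and 1.59% of Cyanase hotspots without a partner, against 1.88% and 2.10% with one. C/EBP letters were in 9.43% and 7.55% against 11.2% and 11.5%, and HNF4 letters in 0.722% and 0.523% against 0.893% and 0.899%. The part of width was not tested.

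**Figure D2:**
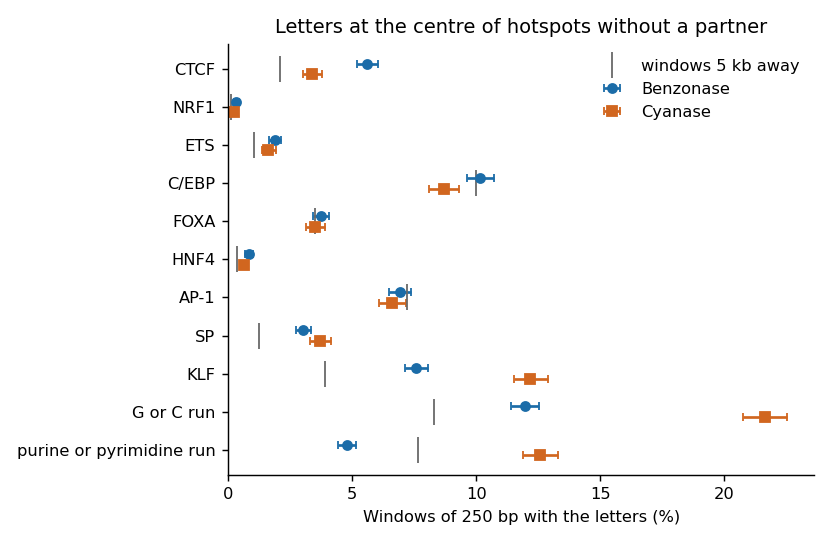
Share of 250 bp windows (horizontal axis, percent) that hold each set of letters at the centre of hotspots without a partner, for Benzonase (circles) and Cyanase (squares), with 95% Wilson intervals; vertical ticks mark windows 5 kb to either side of all hotspots. G runs (21.6% against 12.0%) and purine or pyrimidine runs (12.6% against 4.78%) are higher for Cyanase, and CTCF letters (5.60% against 3.39%) are higher for Benzonase.

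Where both enzymes called a site, they mostly drew it alike, and less so at narrow sites. Overlapping hotspots formed 47939 regions, and 46300 of them (96.6%, interval 96.4 to 96.7) held exactly 1 hotspot of each list. Another 1083 regions held 1 Benzonase and several Cyanase hotspots, 398 held several Benzonase hotspots and 1 Cyanase hotspot, and 158 held several of each. In the pairs of 1 and 1, the shared part made up a median 89.5% of the union (quartiles 80.5% and 94.5%). The median was 66.8% in pairs with a mean width of 251 to 350 bp and 64.2% at 351 to 450 bp. It was 93.5% above 1000 bp. The midpoints lay within 50 bp of each other in 73.0% of pairs, with a median distance of 27 bp. Shifts went both ways, and the signed difference, Benzonase minus Cyanase, had a median of 0.5 bp (quartiles -26.5 and 27.5 bp).

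Within these pairs the Benzonase hotspot was a little wider. Its width exceeded that of the Cyanase hotspot by a median of 34 bp (interval 33 to 35, quartiles -20 and 100 bp). Benzonase was wider in 30796 pairs (66.5%), Cyanase in 15247, and 257 were equal. The extra width was even on both sides, with a median of 14 bp on the left and 14 bp on the right. The Benzonase hotspot enclosed the Cyanase hotspot in 41.8% of pairs, the reverse held in 16.0%, and 42.2% were staggered. At promoters the median difference was 59 bp and in CpG islands 68 bp, against 22 bp in introns and 26 bp in distal regions. Wider pairs lie at promoters and islands, and the median difference was 22 bp in pairs with a mean width of 551 to 700 bp and 54 bp in pairs with a mean width over 1000 bp.

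**Figure D3:**
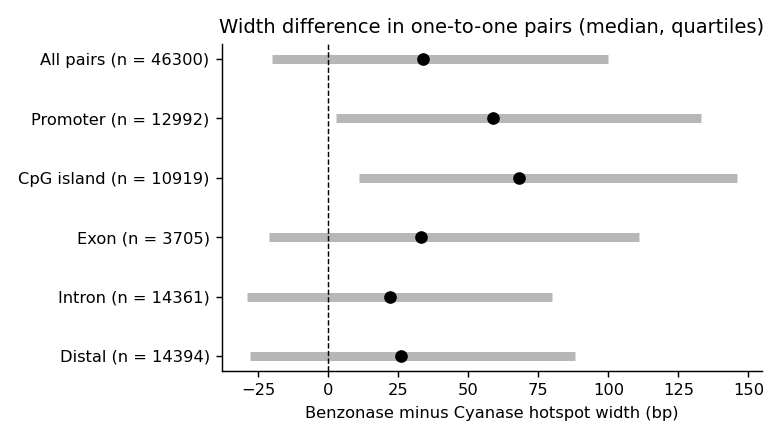
Benzonase minus Cyanase hotspot width in bp (horizontal axis) in pairs of 1 hotspot of each list, for all pairs and by location; dots are medians and grey bars run between the quartiles. The median is 34 bp over all pairs and is above 0 in each class drawn, with 68 bp in CpG islands and 22 bp in introns.

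At 10127 pairs, the part shared by both hotspots held a TSS, and all TSSs there were on the same strand. In these pairs the edges could be read along the direction of transcription. The Benzonase hotspot reached a median of 510 bp upstream and 634 bp downstream of the TSS, and the Cyanase hotspot 481 and 575 bp. Pair by pair, the Benzonase edge lay further out by a median of 20 bp upstream (interval 19 to 21) and 33 bp downstream (interval 31 to 35). Where a pair held several TSSs, the reach was measured from the TSS with the lowest coordinate. That is the most upstream TSS on the plus strand and the most downstream on the minus strand. The upstream and downstream reaches can therefore not be set against each other.

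The widths of some promoter pairs differed several-fold. Ptger3, a prostaglandin E receptor, had a Benzonase hotspot of 1109 bp and a Cyanase hotspot of 251 bp. Fuz, a planar polarity gene needed for cilia, had 814 and 251 bp. Eomes, a T-box regulator of early development and lymphocytes, had 924 and 306 bp. Xkr4 had 2050 and 698 bp, and Kcng3, a potassium channel subunit, had 1499 and 514 bp. In the opposite direction, Negr1, a neuronal cell adhesion protein, had a Benzonase hotspot of 299 bp and a Cyanase hotspot of 849 bp. Corin, the protease that activates natriuretic peptides, had 272 and 671 bp. Dzip1l, a cilium gene, had 363 and 872 bp, St8sia2, a polysialyltransferase, had 251 and 555 bp, and Nt5dc2 had 596 and 1284 bp. All of these but Nt5dc2 had a hotspot in a CpG island. They are the extremes of 10127 pairs, and each rests on 1 list per enzyme.

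The bases that only 1 enzyme covered at the edges of a pair were compared over strips of at least 50 bp. The 25125 strips of Benzonase alone held 23.0 CpG per kb and 0.573 G runs per kb. The 11003 strips of Cyanase alone held 15.5 CpG per kb and 0.964 G runs per kb. GC content was 49.9% and 49.1%. The edges thus differed in the same direction as the hotspots without a partner, in bases that those hotspots do not include. The strips were not matched by location. The Benzonase hotspot enclosed the Cyanase hotspot in 53.3% of island pairs and 38.2% of other pairs. The reverse held in 8.43% and 18.3%. The part of location in the strip contrast was not tested. The shared core of the pairs held 34.4 CpG and 0.758 G runs per kb at 53.5% GC.

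Some hotspots of 1 enzyme were cut into pieces by the other. Cyanase split 1248 Benzonase hotspots, 2.57% of those with a partner (interval 2.44 to 2.72), and Benzonase split 558 Cyanase hotspots, 1.13% (interval 1.04 to 1.23). The gaps between pieces were short, with medians of 70 bp and 51.5 bp. Gaps of at least 50 bp left by Cyanase inside Benzonase hotspots held 37.1 CpG per kb and 0.662 G runs per kb, the latter from 86 runs (interval 0.529 to 0.817). Gaps left by Benzonase inside Cyanase hotspots held 25.05 CpG per kb and 1.59 G runs per kb, the latter from 68 runs (interval 1.23 to 2.01). GC content was 54.2% and 53.2%. The pieces around the gaps left by Cyanase held 38.5 CpG and 0.967 G runs per kb. Those around the gaps left by Benzonase held 30.7 and 1.11. The difference in CpG was thus also present in the pieces, and its part in the gap contrast was not tested.

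**Figure D4:**
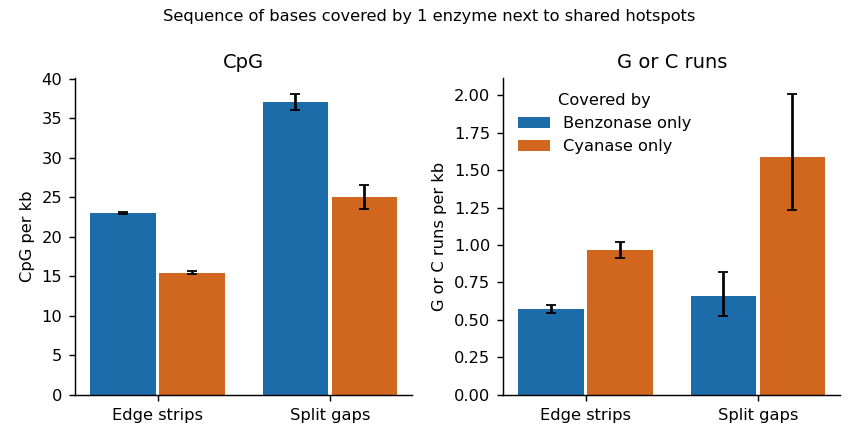
CpG per kb (left) and G or C runs per kb (right) in bases covered by 1 enzyme next to bases covered by both, for edge strips of pairs and for gaps in split hotspots, with exact 95% Poisson intervals. Benzonase-only bases hold more CpG (23.0 against 15.5 per kb in strips) and Cyanase-only bases more runs (1.59 against 0.662 per kb in gaps).

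Among the Benzonase hotspots in most pieces, the one over the TSS of Nr2f2, an orphan nuclear receptor, spanned 4786 bp and met 4 Cyanase hotspots with a widest gap of 352 bp. The one at Mgst1, a membrane glutathione transferase abundant in liver, spanned 4550 bp with gaps of 5 to 31 bp. Those at Lgals9, a galectin, and Agap1 spanned 3791 and 3231 bp, and one on X, 23908 bp from Gm7157, spanned 2861 bp. Of the Cyanase hotspots, those at Gfod2 (2774 bp), Phf8, a histone demethylase (2748 bp), and Traf3ip2, an adaptor of interleukin-17 signalling (2394 bp), each met 3 Benzonase hotspots. So did the one 10193 bp from Serpina1c, an antitrypsin gene (2301 bp), and the one at Etv1, an ETS factor (2135 bp).

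The widest hotspots without a partner were few. For Benzonase they lay over a TSS of Fgd4 (1466 bp, with a Cyanase hotspot 294 bp away), Cacnb2 (1308 bp), a calcium channel subunit, and Frmd3 (1256 bp), and between genes, 252037 bp from Dact1 (1223 bp) and 220505 bp from BC049702 (1178 bp). For Cyanase none of the 5 widest covered a TSS. Those in introns were at Ubash3b (1201 bp) and Cenpj (1024 bp). The others lay between genes, 68283 bp from Lphn3 (1327 bp), 154236 bp from 1700047G07Rik (1072 bp) and 618 bp from Gm5635 (957 bp).

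Protein-coding genes were then sorted by the list that held at least 1 TSS. Of 22365 genes, 12274 (54.9%) had a TSS in both lists, 567 (2.54%) in Benzonase hotspots alone, 193 (0.863%) in Cyanase hotspots alone and 9331 (41.7%) in neither. A CpG island covered a TSS in 79.6% of the genes in both lists, 55.2% of those in the Benzonase list alone (interval 51.1 to 59.2), 40.4% of those in the Cyanase list alone (interval 33.7 to 47.5) and 11.2% of those in neither. For 150 of the Benzonase genes and 54 of the Cyanase genes, the hotspot at the TSS did have a partner, which stopped short of the TSS. The other list was over 1 kb from every TSS for 355 of the Benzonase and 112 of the Cyanase genes.

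Gene lists drawn up from known biology, with earlier results of these data known, showed where the 1-enzyme genes fell. All 60 hepatocyte genes had a TSS in both lists, whose background was 54.9%, and so did all 40 ubiquitous genes. Only 11 of the hepatocyte genes had a TSS in a CpG island, against 35 of the ubiquitous ones. Alb, which encodes serum albumin, had a Benzonase hotspot of 849 bp and a Cyanase hotspot of 810 bp. Apoa1, the main protein of high density lipoprotein, had 4060 and 4052 bp, and Apob, the protein of low density lipoprotein, had 2374 and 2322 bp. Ttr, the thyroid hormone carrier transthyretin, had 915 and 795 bp. Larger gaps stood at Trf, which encodes transferrin (2107 and 1281 bp), and at F2, which encodes prothrombin (2935 and 1668 bp). Median widths over the list were 1152 bp for Benzonase and 1029 bp for Cyanase, and the Benzonase hotspot was wider at 46 genes and the Cyanase hotspot at 12. Of the ubiquitous genes, Gapdh, a glycolytic enzyme, had 3014 and 2649 bp, and Actb, cytoplasmic actin, 2566 and 2747 bp.

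Genes of other liver cells were split between the lists. Of 32 such genes, 11 had a TSS in both, 15 in neither, 4 (12.5%) in the Cyanase list alone and 2 (6.25%) in the Benzonase list alone, against 0.863% and 2.54% of all genes. In the Cyanase list alone were Clec4f, the Kupffer cell lectin (hotspot of 449 bp, nearest Benzonase hotspot 12458 bp from the TSS), C1qa, a complement subunit made by macrophages (422 bp, 5402 bp), Des, the filament protein desmin of stellate and muscle cells (464 bp, 41982 bp), and Dcn, the matrix proteoglycan decorin (381 bp, 8423 bp). In the Benzonase list alone were Emr1, which encodes the macrophage marker F4/80 (438 bp, nearest Cyanase hotspot 79237 bp from the TSS), and Krt19 (503 bp, 21987 bp). Both directions thus included macrophage genes. All 6 hotspots were 503 bp wide or narrower, widths at which partners were often missing across the lists. Endothelial genes in both lists included Kdr (861 and 789 bp) and Flt1 (1543 and 1406 bp), both receptors of vascular endothelial growth factor, and Stab1 (546 and 645 bp), a scavenger receptor of sinusoids. The endothelial genes Pecam1, Lyve1 and Stab2 were in neither, as were Acta2, smooth muscle actin, and Marco, a macrophage receptor.

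Developmental regulators are mostly silent in adult hepatocytes, and 42 of the 57 measured here had a TSS in a CpG island. Of these 57 genes, 14 were in both lists, 38 in neither, 4 (7.02%) in the Benzonase list alone and 1 (1.75%) in the Cyanase list alone. Of all genes, 54.9% were in both, 41.7% in neither, 2.54% in the Benzonase list alone and 0.863% in the Cyanase list alone. For Sox2, a pluripotency factor (893 bp), and Tbx15, a T-box gene (636 bp), the Cyanase list ended 19 and 55 bp from the TSS, so a shift of an edge was enough. Dlx2, a homeobox gene of the forebrain (560 bp), was 606 bp from the nearest Cyanase hotspot, and Isl1 (397 bp) was 15660 bp from it. Atoh1, a neuronal regulator, had a Cyanase hotspot of 781 bp, with Benzonase 32 bp from the TSS. Among those in both lists, Neurog2, a proneural factor, had 738 bp for Benzonase and 285 bp for Cyanase, Lhx2 had 1507 and 844 bp, and Olig1 1955 and 1219 bp. Otx1 was wider for Cyanase, with 627 bp for Benzonase and 730 bp for Cyanase. Benzonase was wider at 11 of these 14 genes and Cyanase at 3.

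Genes of unrelated tissues were rarely in either list. Of 35, 31 were in neither, 3 in both and 1 in the Cyanase list alone. Of all genes, the shares were 41.7%, 54.9% and 0.863%. That one was Gfap, the filament protein of astrocytes and of stellate cells, with a Cyanase hotspot of 415 bp and Benzonase 3441 bp from the TSS. The genes in both were Elane, a neutrophil protease (575 and 599 bp), Mbp, a myelin protein (769 and 622 bp), and Opn1sw, a cone opsin (1206 and 1126 bp). Globin (Hba-a1, Hbb-b1) and keratin (Krt14) genes were in neither.

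**Figure D5:**
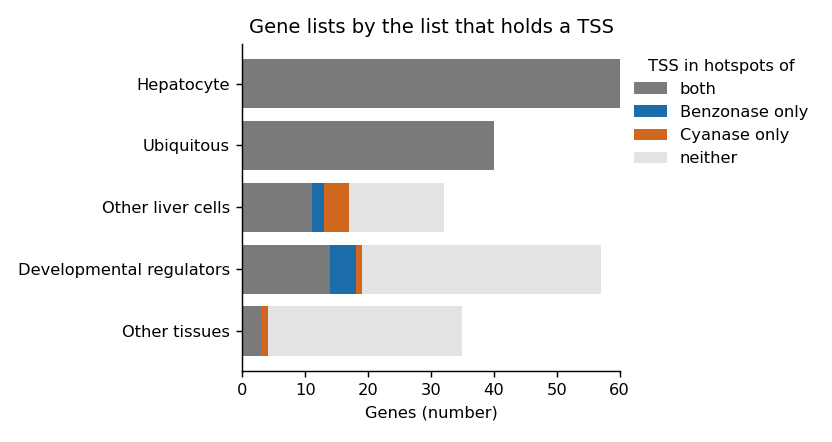
Number of genes (horizontal axis) in each of 5 gene lists whose TSS lay in hotspots of both enzymes, of Benzonase alone, of Cyanase alone or of neither. The 60 hepatocyte and 40 ubiquitous genes are in both. Cyanase-only genes are 4 of the 32 genes of other liver cells, 1 developmental regulator and 1 gene of other tissues. Benzonase-only genes are 2 genes of other liver cells and 4 developmental regulators.

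Among all genes whose TSS was in 1 list and over 1 kb from the other, those with the widest hotspots were read next. For Benzonase, 8 of the 10 had a TSS in a CpG island. They were Cacnb2 (1308 bp), Frmd3 (1256 bp), Prdm6, a PR domain regulator of smooth muscle (1175 bp), Acsl6, an acyl-CoA synthetase of brain (1163 bp), Kcnj3, a potassium channel (1064 bp), Aldh1a2, which makes retinoic acid (1057 bp), Htr7, a serotonin receptor (994 bp), Drd1a, a dopamine receptor (980 bp), Dbndd2 (970 bp) and Tmem52 (955 bp). The exceptions were Frmd3 and Tmem52. Frmd3 lay in a hotspot that overlapped an island elsewhere.

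For Cyanase the widest were narrower, and 3 of 10 had a TSS in an island. They were Alox5ap, the activator of leukotriene synthesis in leukocytes (634 bp), Crispld1 (628 bp), Gm3667 (616 bp), 1700001L19Rik (607 bp), the olfactory receptor gene Olfr658 (604 bp), Hfm1, a meiotic helicase (597 bp), Neurl1a (597 bp), Tagap, a T cell GTPase activator (592 bp), Cacna2d4, a calcium channel subunit (574 bp), and Catsperg2, a sperm channel subunit (563 bp). Those with an island were Gm3667, Hfm1 and Neurl1a. Across all 1-enzyme genes the hotspot at the TSS had a median width of 550 bp for Benzonase and 446 bp for Cyanase, with a mean GC content of 62.3% (SD 7.76) and 60.3% (SD 8.69).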

How the data were processed

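Tags had been aligned to mm9 by the authors with Eland or Bowtie, pooled over the 3 amounts of each enzyme and called as hotspots at a false discovery rate of 0%. The deposited lists hold chromosome, start and end, and 13 Benzonase and 11 Cyanase neighbours overlap within a list. The paper also names a cut-off on tag density, and whether it was applied to the deposited lists is unknown. For each enzyme the paper counts fewer pooled hotspots than the deposited list holds, and the reason was not tested. The shares given here therefore describe the deposited lists and not the set counted in the paper. The members and gene lists were chosen with earlier results of these data known. Printed coordinates count from 1.

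Overlaps, shares with Wilson intervals, medians with exact binomial intervals, letter searches and CpG islands (minimum length 200 bp, GC above 50% and an observed CpG number above 0.6 of that expected, 23578 in all) were computed in Python 3.11.15 with numpy 2.4.6, pandas 2.3.3, scipy 1.17.1 and numba 0.67.0. Fixed width classes replaced deciles. Genes came from GENCODE M1 on NCBIM37, whose chromosome lengths match, and 224 of 226 listed genes were matched. In the Cyanase list, 2 hotspots end past their chromosome. Named were all list genes in 1 list alone with examples of the rest, the 10 widest 1-enzyme genes, the 5 most extreme pairs each way, the 5 hotspots in most pieces and the 5 widest without a partner. Code was tested on simulated lists, where 13 of 13 planted quantities were recovered. The DNase I list was used only for its count. RefSeq promoter tables are on another build and were not used here. Some sequence examples are not reported here.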

Additional observations from a re-analysis of the deposited data

How the results depend on the processing

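Of 43 recomputed values, 27 were classed as unchanged, 16 as moved and 0 changed sign. A share or median was classed as moved when it left the interval of the reported value. Counts were allowed a wider change, and 129 against 193 genes in the Cyanase list alone was classed as unchanged. The share of Benzonase hotspots with a partner became 80.02% on autosomes, 82.6% with equal numbers of widest hotspots, 85.5% without hotspots under the lower width quartile and 76.1% with an overlap of 50% of both. The share for Cyanase became 85.8%, 84.1%, 91.4% and 80.4%. Split hotspots fell to 480 (Benzonase) and 171 (Cyanase) when a gap of at least 100 bp was required. They fell to 849 (Benzonase) and 275 (Cyanase) when hotspots within 150 bp were joined. Island shares of hotspots without a partner became 4.03% for Benzonase and 1.68% for Cyanase with islands of at least 500 bp, and 6.30% and 2.26% with no hotspot of the other list within 1 kb. CTCF letters in Benzonase hotspots without a partner became 6.04% in distal ones, an alternative chosen after seeing the data. The stricter islands and gaps keep fewer members by construction, and other causes were not tested. Genes in 1 list alone were 530 and 205 with equal numbers, and 530 and 129 without narrow hotspots. They rose to 749 and 285 with all annotated transcripts. The paper gives its depth in uniquely aligning tags, and the effect on copies of near-identical genes, such as the Mup family, was not tested. Tag numbers were not analysed here, so depth could not be matched, and a hotspot missing from 1 list was not detectable at that depth and threshold rather than absent.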
